A study of Mus musculus with 12 samples.

Results

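The genes that build and desaturate fatty acids were followed in primary cultured mouse hepatocytes exposed to benzbromarone (BBR), a urate-lowering drug that blocks a renal urate transporter, and to oleic acid (OA), a monounsaturated fatty acid used to load liver cells with lipid. The set held 10 genes chosen by symbol: Acly, Acaca, Acacb, Fasn, Me1, Elovl6, Scd1, Scd2, Srebf1 and Thrsp. All 10 were among the 22471 features of every library. Polyadenylated RNA was sequenced in 12 libraries, 3 for each of 4 groups. Con cells received neither agent. ConOA cells received 0.2 mM OA, BBR cells received 15 µM BBR, and BBROA cells received both for 16 h, as given in the methods of the study. There the OA was pre-incubated with bovine serum albumin before it was added. Whether cells without OA also received albumin is not stated, and its part in the results was not tested. By the same methods, the hepatocytes of all groups were isolated with collagenase and a Percoll step from livers of 6-week-old male mice of the C57BL/6J strain, which carries no transgene. Whether the 3 libraries of a group came from separate mice or from wells of 1 preparation is not given in the sources used here. The p-values therefore measure the spread between these libraries, which may be technical.

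De novo lipogenesis turns surplus carbohydrate into fatty acids in the liver. ATP citrate lyase (Acly) releases acetyl-CoA from citrate, acetyl-CoA carboxylases (Acaca and Acacb) make malonyl-CoA from it, and fatty acid synthase (Fasn) builds palmitate with NADPH that malic enzyme (Me1) helps to supply. Elovl6 lengthens palmitate, and the stearoyl-CoA desaturases Scd1 and Scd2 place a double bond, so that oleate itself is an end product of the route. Srebf1 encodes the transcription factor SREBP-1, which responds to insulin and sterols and drives these genes together with ChREBP and LXR. Thrsp encodes a small nuclear and cytosolic protein that accompanies lipogenesis.

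Total counts ranged from 15485498 to 23668371 per library, so that 3 counts, taken as the floor of detection, came to 0.127 to 0.194 CPM (a library's count scaled to a common total). Mitochondrial transcripts took 5.5% to 6.89% of the counts. The hepatocyte identity of the cells was checked on 10 markers, of which 9 were matched by symbol and expressed, with Alb at 27126 to 34442 CPM. Of 7 adipocyte markers Lep and Retn had no count in any library, and Adipoq and Plin1 were at or under 0.129 CPM. Cfd was near the floor, at 0.0954 to 0.396 CPM, and Fabp4 and Car3 were expressed. The summed level of the hepatocyte markers was 37828 to 39224 CPM in Con, 43665 to 44982 in ConOA, 37871 to 39650 in BBR and 45195 to 47122 in BBROA. In bulk RNA, fewer cells of a type and less RNA per cell cannot be told apart.

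All members were expressed, and transcripts of the desaturase Scd1 dominated the set. Per transcript length, in FPKM (fragments scaled by transcript length and library total), Scd1 was the highest member in Con with 650.9 ± 37.6 (SD, n = 3), followed by Me1 with 112.9 ± 4.5 and Acly with 99.6 ± 7.33. Acaca stood at 40.1 ± 7.18 FPKM, Srebf1 at 24.8 ± 0.885, Thrsp at 21.9 ± 0.656 and Fasn at 19.1 ± 1.27. The lowest levels were those of Elovl6 with 15.1 ± 0.804 FPKM, Acacb with 8.11 ± 0.308 and Scd2 with 2.23 ± 0.184. No neighbours in this order overlapped over the Con libraries, the nearest by difference being Thrsp (21.2 to 22.5 FPKM) and Fasn (17.7 to 20.1) and the nearest by ratio Me1 (108.2 to 117.2) and Acly (91.8 to 106.4). In CPM, the 10 genes summed to 4539 ± 247.1 in Con, 2719 ± 83.2 in ConOA, 5575 ± 350.9 in BBR and 3029 ± 62.1 in BBROA. Scd1 alone gave 68.5% of that sum in Con, 55.4% in ConOA, 77.2% in BBR and 61.7% in BBROA. Without Scd1 the sum was 1429 ± 77.3 CPM in Con, 1212 ± 13.1 in ConOA, 1269 ± 34.5 in BBR and 1161 ± 21.7 in BBROA. The changes of the summed level were thus mostly those of 1 gene.

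**Figure D1:**
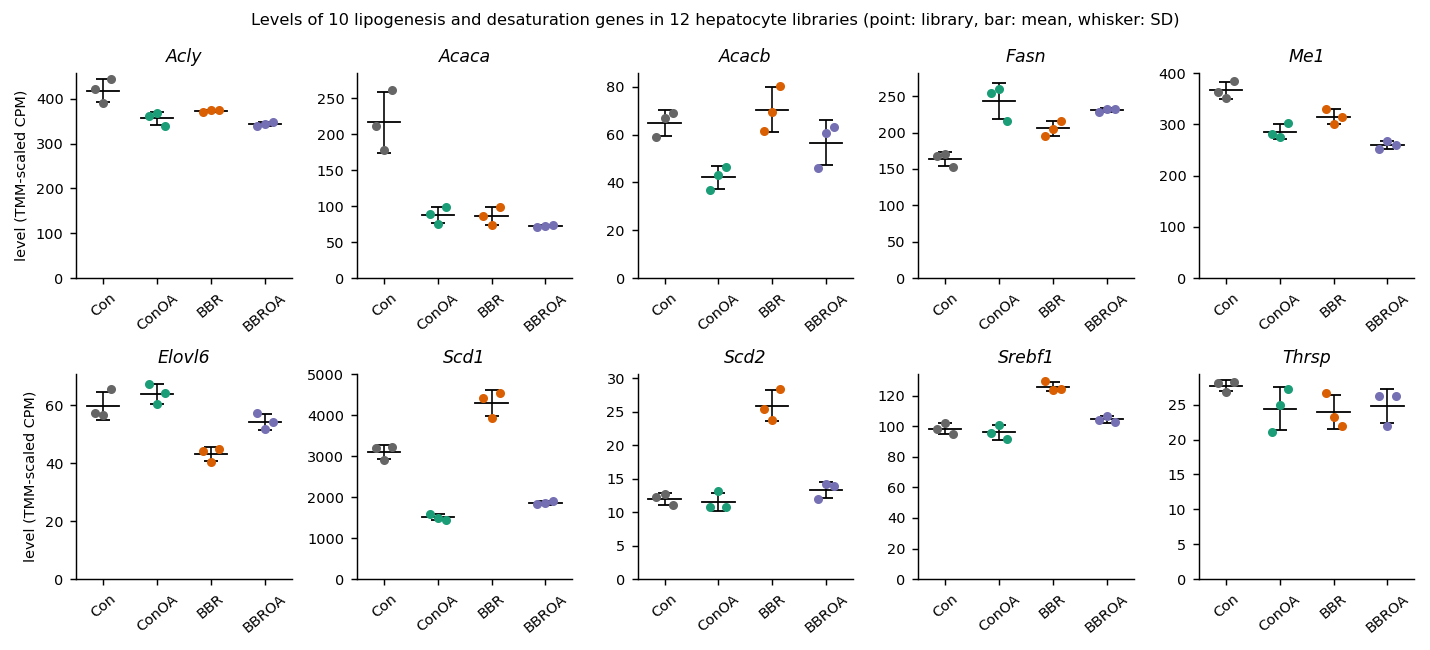
TMM-scaled CPM of each of the 10 genes (vertical axis, from 0) in the 12 libraries, grouped as Con, ConOA, BBR and BBROA, with each point a library, the bar the group mean and the whisker the SD. Acaca is high only in the 3 Con libraries (177.8 to 262.0 CPM against 71.1 to 98.4 in the other 9), Scd2 and Srebf1 are high in the 3 BBR libraries, and Scd1 separates the libraries with OA (1446 to 1920 CPM) from those without (2905 to 4546 CPM).

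The start regions of 3 members are printed because these genes moved differently in the comparisons that follow: Fasn was called higher in 3 of 4 and Acly lower in 3, and Srebf1 encodes the factor that regulates both. Each line gives the 250 bases upstream of a RefSeq transcription start, 5′ to 3′ in the direction of the gene, with CCAAT boxes and GC boxes (GGGCGG), on either strand, in capitals. All 4 lie on the minus strand of chromosome 11 in build GRCm38.p6. The Fasn window is chr11:120824548-120824797, and that of Acly is chr11:100528001-100528250. Srebf1 has an outer start, with the window chr11:60222582-60222831, and an inner start 1954 bases inside the gene model, with the window chr11:60220628-60220877. A further Srebf1 start, 12110 bases inside the gene model, is not printed. The gene-level counts do not separate transcripts from the different Srebf1 starts.
Fasn: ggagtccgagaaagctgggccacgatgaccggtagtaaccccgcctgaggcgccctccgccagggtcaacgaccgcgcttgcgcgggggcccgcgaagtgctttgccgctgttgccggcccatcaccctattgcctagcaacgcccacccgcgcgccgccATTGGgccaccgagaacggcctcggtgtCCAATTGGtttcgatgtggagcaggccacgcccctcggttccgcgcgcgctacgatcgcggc
Acly: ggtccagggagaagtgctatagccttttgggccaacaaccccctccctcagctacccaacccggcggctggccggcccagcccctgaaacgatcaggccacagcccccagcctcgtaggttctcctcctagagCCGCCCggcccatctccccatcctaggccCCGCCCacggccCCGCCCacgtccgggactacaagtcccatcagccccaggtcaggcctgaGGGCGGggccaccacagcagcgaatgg
Srebf1, outer start: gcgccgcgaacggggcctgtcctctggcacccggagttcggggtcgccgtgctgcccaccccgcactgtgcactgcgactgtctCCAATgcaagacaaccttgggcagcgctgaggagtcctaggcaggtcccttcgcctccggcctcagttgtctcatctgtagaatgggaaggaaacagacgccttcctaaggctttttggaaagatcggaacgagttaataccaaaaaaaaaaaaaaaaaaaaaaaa
Srebf1, inner start: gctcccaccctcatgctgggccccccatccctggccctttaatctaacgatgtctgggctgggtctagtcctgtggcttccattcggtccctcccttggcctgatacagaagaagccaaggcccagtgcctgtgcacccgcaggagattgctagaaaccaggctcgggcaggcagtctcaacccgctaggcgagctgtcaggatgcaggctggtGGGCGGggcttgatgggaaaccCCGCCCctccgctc

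RefSeq windows of 300 bases (250 upstream and 50 downstream of a start) were matched for 8 of the 10 members, in 11 windows. Scd1 and Scd2 had none in the table used here, and the Acaca and Acacb windows lay 65766 and 18983 bases inside their gene models. Me1 and Srebf1 also had a window far inside, at 8676 and 12110 bases. All of these windows are counted below. Both strands were searched. A CCAAT box was found in 7 of the 11 windows, those of Acacb, Acly, Fasn, Me1, Srebf1 and Thrsp, against 37.4% of all 32851 windows. The boxes of Acacb and Me1, and that of 1 Srebf1 window, lay at the far inner starts. The box of Acly lay downstream of its start and so outside the bases printed above. Fasn held 3, starting 90, 62 and 59 bases before the start, and the last 2 of these overlap. A GC box was found in 4 windows, of Acly, Me1 and Srebf1, against 35.7% of all windows. The Acly window and 1 Me1 window each held 4 boxes. Those of Srebf1 lay in its windows 1954 and 12110 bases inside the gene model. Neither the sterol regulatory element core TCACNCCAC (1.24% of all windows) nor the E-box CACGTG (7.15%) was found in a member window. The PPAR element DR1 and the LXR element DR4, which are the hexamer AGGTCA repeated with 1 or 4 bases between, were also not found, with or without 1 mismatch per repeat. With the mismatch they occur in 2.4% and 1.75% of all windows. The absence of a match says only that these letters are not in these windows.

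BBR was first compared with Con to see how the drug acted on the set without added fatty acid. The members split evenly: Scd1, Scd2, Srebf1 and Fasn rose, and Acaca, Elovl6, Me1 and Acly fell. Of the 10 genes, 8 passed an adjusted p of 0.05 (edgeR quasi-likelihood test, Benjamini-Hochberg adjustment over 12555 genes), where 27.7% of all genes tested passed, 13.2% as higher and 14.5% as lower. The median log2 fold change of the members was -0.019, against -0.00085 over all genes, while their median absolute log2 fold change was 0.35, against 0.14. The CPM of BBR and Con libraries did not overlap for 9 of the 10, against 41.5% of all genes.

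At the entry to the route, Acaca (chromosome 11, 84129672 to 84401651, plus strand, as all positions here a protein-coding gene of GENCODE on GRCm38) had the largest fall of the set. It was at 211.3, 177.8 and 262.0 CPM in Con replicates 1 to 3 and at 85.8, 73.3 and 98.3 CPM in BBR. Every BBR library was below every Con library, although the Con libraries varied more than those of any other group. The level was 2.51-fold lower (log2 fold change -1.33, SE 0.11, adjusted p = 3.61e-07). Acacb (chromosome 5, 114146535 to 114250761, plus strand), which encodes the carboxylase of the outer mitochondrial membrane whose product restrains fatty acid oxidation, covered 58.8 to 68.9 CPM in Con and 61.5 to 80.4 in BBR. These ranges overlapped and the gene was not called (log2 fold change 0.12, 95% interval -0.03 to 0.28, adjusted p = 0.282), although it was called higher without BBR replicate 1 (0.22, adjusted p = 0.0366). Here and below the 95% intervals are approximate and somewhat too narrow. Acly (chromosome 11, 100476353 to 100528000, minus strand) was at 420.9, 391.3 and 443.1 CPM in Con and 369.8, 374.1 and 374.4 in BBR. Its small fall, 1.12-fold (log2 fold change -0.16, SE 0.051, adjusted p = 0.0264), held when Con replicate 2 was left out. Leaving out any of the other 5 (BBR replicates 1, 2 and 3, Con replicates 1 and 3) ended the call and gave values between -0.16 and -0.12 with adjusted p from 0.0666 to 0.109.

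Fasn (chromosome 11, 120805846 to 120824547, minus strand) moved against Acaca. It was at 168.1, 171.0 and 153.1 CPM in Con and at 195.3, 205.4 and 215.9 in BBR, so that all BBR libraries were higher. The rise was 1.26-fold (log2 fold change 0.33, SE 0.053, adjusted p = 1.80e-04). Me1 (chromosome 9, 86581371 to 86695953, minus strand) was at 364.0, 351.8 and 384.1 CPM in Con and at 330.5, 301.1 and 314.8 in BBR. It was lower in each BBR library than in any Con library, by 1.16-fold (log2 fold change -0.21, SE 0.051, adjusted p = 0.00537).

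The chain-modifying enzymes also parted. Elovl6 (chromosome 3, 129532355 to 129638495, plus strand) was at 57.3, 56.5 and 65.4 CPM in Con and at 44.3, 40.3 and 44.9 in BBR, a fall of 1.38-fold (log2 fold change -0.46, SE 0.065, adjusted p = 6.08e-05). Scd1 (chromosome 19, 44394455 to 44407879, minus strand), the main desaturase of liver, was at 3197, 2905 and 3227 CPM in Con and at 4427, 3945 and 4546 in BBR. All BBR libraries were above all Con libraries, 1.39-fold on average (log2 fold change 0.48, SE 0.064, adjusted p = 3.35e-05). Scd2 (chromosome 19, 44293674 to 44306864, plus strand), the form more typical of brain and of early life, was at 12.3, 12.7 and 11 CPM in Con and at 25.4, 23.8 and 28.4 in BBR. This was the largest rise of the set, 2.17-fold (log2 fold change 1.12, SE 0.086, adjusted p = 1.33e-07). Scd1 and Scd2 are near copies and both had fractional counts, so reads of the abundant Scd1 could in part be counted as Scd2. Scd2 was 0.388% ± 0.0482 of Scd1 in Con and 0.6% ± 0.0262 in BBR (SD, n = 3), so Scd2 rose beyond the rise of Scd1.

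Srebf1 (chromosome 11, 60199089 to 60222581, minus strand) was at 98.2, 102.3 and 95 CPM in Con and at 129.5, 123.9 and 124.6 in BBR. The 3 BBR libraries lay closely together above Con, 1.29-fold (log2 fold change 0.36, SE 0.046, adjusted p = 2.21e-05). Thrsp (chromosome 7, 97412938 to 97417730, minus strand) was at 28.1, 26.8 and 28.2 CPM in Con and at 26.7, 23.2 and 21.9 in BBR. The groups did not overlap, but the log2 fold change of -0.20 (95% interval -0.35 to -0.05) did not pass (adjusted p = 0.0665). It passed when BBR replicate 1 was left out (-0.29, adjusted p = 0.0105). Markers of other liver cells moved in the same comparison: 3 of 3 tested cholangiocyte markers and 3 of 6 endothelial markers were higher, and 1 of 8 Kupffer cell markers was lower. Of 2 tested adipocyte markers 1 was higher. Fabp4 of that list was at 15.4 to 16.3 CPM in Con and 22.8 to 29.6 in BBR. The sum of the list overlapped, at 100.7 to 121.2 CPM in Con and 98.9 to 115.3 in BBR. Of the 9 hepatocyte markers 2 were higher and 4 lower, and the mitochondrial share of the counts was 5.5% to 6.07% in Con and 6.34% to 6.89% in BBR, without overlap. The summed cholangiocyte list, in which Krt7 and Cftr stayed at or under 0.17 CPM in all libraries, was 37.4 to 43.6 CPM in Con and 59.5 to 69.5 in BBR, and the endothelial list was 51 to 54 and 58.2 to 62.9 CPM. Their part in the member results was not tested.

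**Figure D2:**
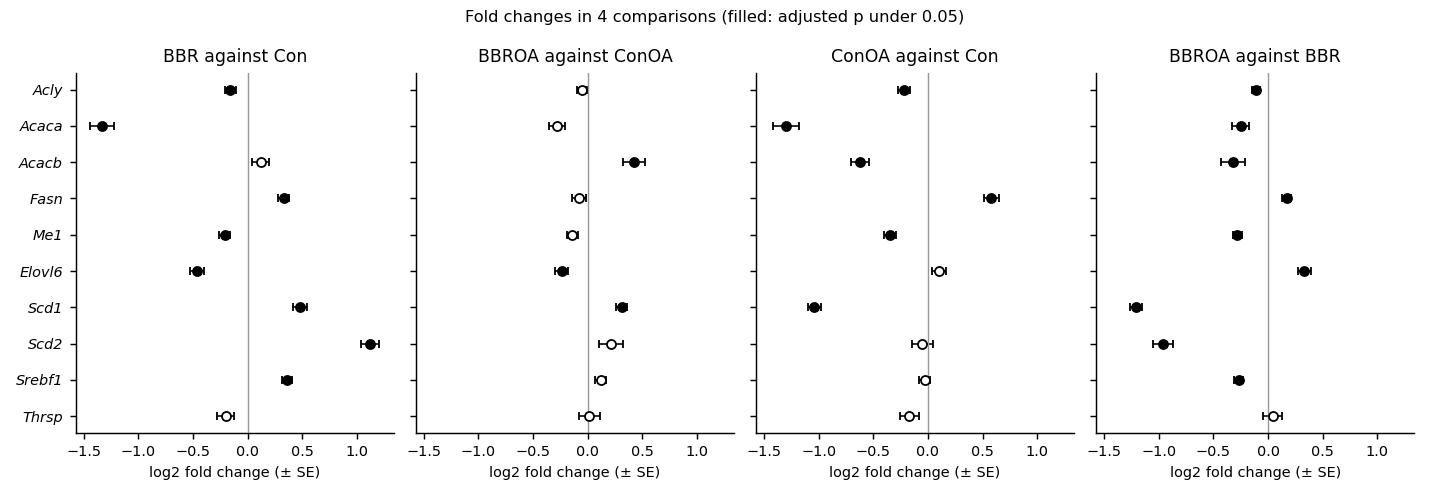
Log2 fold changes (horizontal axis, whiskers 1 SE) of the 10 genes in the 4 comparisons, each from 3 against 3 libraries, with filled points at an adjusted p under 0.05. Acaca is the largest fall with BBR and with OA in cells without the other agent (-1.33 and -1.30), Scd1 falls with OA in both settings (-1.04 and -1.21) and rises with BBR in both (0.48 and 0.31), and BBROA against ConOA shows the fewest filled points (3).

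The same question was asked in lipid-loaded cells with BBROA against ConOA. Fewer members were called than in cells without OA: Scd1 and Acacb were higher and Elovl6 was lower. These 3 of 10 stood beside 4.59% of all 12278 genes tested, 1.95% higher and 2.63% lower. The median absolute log2 fold change of the members was 0.17, against 0.09 over all genes, and the CPM ranges did not overlap for 5 members, against 23.9% of all genes. Of the 3 calls, the one of Scd1 held without any single library, and the count of calls was 1 without BBROA replicate 2, without BBROA replicate 3 or without ConOA replicate 1.

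Scd1 was at 1590, 1485 and 1446 CPM in ConOA and at 1836, 1848 and 1920 in BBROA. Every BBROA library was higher, by 1.24-fold (log2 fold change 0.31, SE 0.049, adjusted p = 0.00246). Acacb was at 36.9, 43 and 46.4 CPM in ConOA and at 46, 60.8 and 63.1 in BBROA. The lowest BBROA library fell just under the highest ConOA library, and the rise was 1.34-fold (log2 fold change 0.42, SE 0.1, adjusted p = 0.0337). That call was lost without BBROA replicate 2, BBROA replicate 3, ConOA replicate 1 or ConOA replicate 2, at 0.34 to 0.43 with adjusted p from 0.0831 to 0.175. Elovl6 was at 67.3, 60.2 and 64 CPM in ConOA and at 57.1, 51.6 and 54.1 in BBROA, 1.18-fold lower (log2 fold change -0.24, SE 0.06, adjusted p = 0.0368). The call was lost without BBROA replicate 2, BBROA replicate 3, ConOA replicate 1 or ConOA replicate 3 (-0.23 to -0.20, adjusted p from 0.0533 to 0.177). In the deposited FPKM, which also carry the length of the transcripts, the same libraries covered 14.7 to 17.4 in ConOA and 13.7 to 17.1 in BBROA and overlapped.

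Acaca missed the threshold narrowly. It was at 89.4, 75.3 and 98.4 CPM in ConOA and at 71.1, 72.6 and 73.7 in BBROA, with no overlap (log2 fold change -0.28, SE 0.076, adjusted p = 0.0514). DESeq2 called it lower (adjusted p = 0.0292), as did edgeR without the filter on low counts (adjusted p = 0.00575) and without ConOA replicate 2 (log2 fold change -0.38, adjusted p = 0.00646). Srebf1 was at 95.3, 101.1 and 91.7 CPM in ConOA and at 104.0, 106.8 and 102.6 in BBROA, and Me1 was at 280.5, 275.1 and 302.8 against 251.3, 267.9 and 260.4. Neither pair of groups overlapped and neither gene passed (log2 fold change 0.12, 95% interval 0.02 to 0.22, adjusted p = 0.214 for Srebf1, and -0.14, -0.24 to -0.04, adjusted p = 0.127 for Me1). Fasn covered 215.5 to 260.0 CPM in ConOA and 228.3 to 232.5 in BBROA, and its log2 fold change was -0.079 (95% interval -0.20 to 0.04, adjusted p = 0.543). Without ConOA replicate 3, the lowest of its group, Fasn was called lower (-0.16, adjusted p = 0.0469). For Scd2 the ranges were 10.7 to 13.1 and 12 to 14.2 CPM (log2 fold change 0.21, 95% interval -0.00 to 0.42, adjusted p = 0.316). Acly and Thrsp overlapped as well, at -0.052 (adjusted p = 0.602) and 0.015 (adjusted p = 0.952). No marker of Kupffer, endothelial, stellate or cholangiocyte cells or of adipocytes was called in this comparison, and 1 of 9 hepatocyte markers was lower.

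Whether the effect of BBR differed with and without OA was tested as the interaction on all 12 libraries, that is, the BBR effect with OA minus the effect without OA. It passed for 4 members, Acaca, Scd2, Fasn and Srebf1, where 12.2% of 12742 genes passed (6.87% above 0 and 5.31% below). In each of the 4 the fitted BBR effect was closer to 0 with OA than without it. Acaca fell by 1.33 on the log2 scale without OA and had a log2 fold change of -0.28 with OA (interaction 1.06, SE 0.17, adjusted p = 3.52e-04). For Scd2 the log2 fold changes were 1.12 without OA and 0.21 with OA (interaction -0.90, SE 0.14, adjusted p = 3.45e-04). For Fasn they were 0.33 and -0.079 (interaction -0.40, SE 0.088, adjusted p = 0.00531). For Srebf1 they were 0.36 and 0.12 (interaction -0.23, SE 0.066, adjusted p = 0.025), a call that was lost without BBR replicate 1, Con replicate 1, Con replicate 3 or ConOA replicate 2 (-0.23 to -0.21, adjusted p from 0.0514 to 0.0649). The interaction did not pass for Scd1 (-0.16, 95% interval -0.32 to -0.00, adjusted p = 0.225), Acacb (0.31, 0.00 to 0.61, adjusted p = 0.224), Elovl6 (0.23, 0.05 to 0.41, adjusted p = 0.111), Acly (0.12, -0.01 to 0.25, adjusted p = 0.292), Thrsp (0.22, -0.04 to 0.48, adjusted p = 0.314) or Me1 (0.078, -0.06 to 0.22, adjusted p = 0.546).

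**Figure D3:**
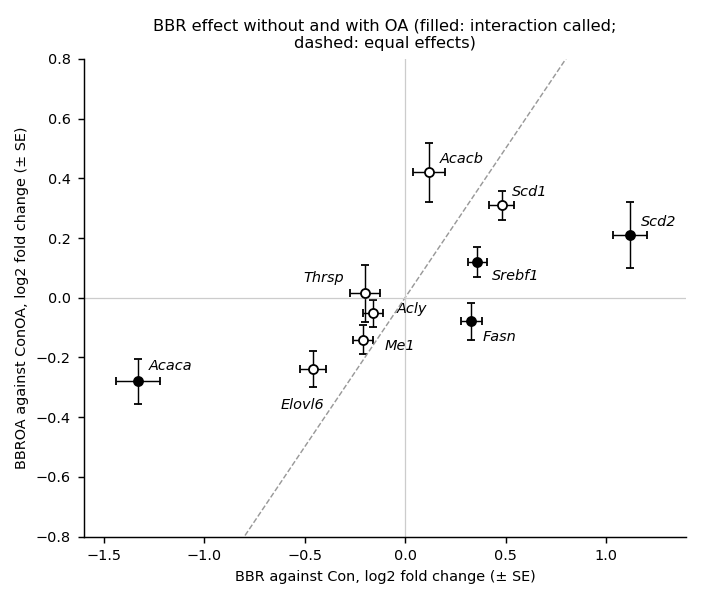
Log2 fold change with BBR in cells without OA (horizontal axis) against that in cells with OA (vertical axis, drawn at a wider scale) for the 10 genes, whiskers 1 SE, filled where the interaction was called, dashed line for equal effects. Acaca (-1.33 and -0.28) and Scd2 (1.12 and 0.21) lie farthest from the dashed line, and Scd1 (0.48 and 0.31) lies near it.

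ConOA was compared with Con for the effect of OA, given with albumin, in cells without BBR. Fasn rose, and Acaca, Scd1, Acacb, Me1 and Acly fell. These 6 of 10 stood beside 42.8% of 12418 genes (21.3% higher and 21.5% lower), so the share called was not far above the background, and 6 members did not overlap, against 52.2% of all genes. The median log2 fold change was -0.2, against -0.006 over all genes. This comparison shares the Con libraries with BBR against Con, and the values of the shared group are not repeated.

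The desaturase that makes oleate was among the strongest falls. Scd1 was at 1590, 1485 and 1446 CPM in ConOA, 2.05-fold below Con (log2 fold change -1.04, SE 0.059, adjusted p = 1.18e-08). Acaca, at 75.3 to 98.4 CPM in ConOA, was 2.46-fold lower (log2 fold change -1.30, SE 0.12, adjusted p = 8.44e-07), and Acacb, at 36.9 to 46.4 CPM, was 1.53-fold lower (-0.62, SE 0.08, adjusted p = 2.63e-05). Both carboxylases, which supply malonyl-CoA, were therefore lower in every ConOA library than in any Con library. Me1 was 1.27-fold lower (log2 fold change -0.35, SE 0.054, adjusted p = 1.33e-04). Acly, at 361.9, 367.9 and 339.9 CPM in ConOA, was 1.17-fold lower (-0.22, SE 0.056, adjusted p = 0.00491). None of these 5 calls, nor that of Fasn, was lost when 1 library was left out.

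Fasn was at 254.6, 260.0 and 215.5 CPM in ConOA, above each Con library, and rose 1.49-fold (log2 fold change 0.58, SE 0.068, adjusted p = 1.12e-05). Elovl6 covered 60.2 to 67.3 CPM in ConOA and overlapped Con (log2 fold change 0.10, 95% interval -0.03 to 0.23, adjusted p = 0.232), and was called higher without Con replicate 3 (0.18, adjusted p = 0.0499). Srebf1 overlapped its Con range (91.7 to 101.1 against 95 to 102.3 CPM, log2 fold change -0.029, 95% interval -0.13 to 0.07, adjusted p = 0.683). Scd2 covered 10.7 to 13.1 CPM (log2 fold change -0.05, 95% interval -0.25 to 0.15, adjusted p = 0.725). Thrsp was at 21.1, 24.9 and 27.2 CPM and was not called (-0.17, adjusted p = 0.115), but was called lower without ConOA replicate 3 (-0.26, adjusted p = 0.0186). The adipocyte list moved with OA through Fabp4, which was at 15.4 to 16.3 CPM in Con and 58.7 to 64.2 in ConOA. Its sum was 100.7 to 121.2 CPM in Con and 142.7 to 163.8 in ConOA while Lep and Retn were at 0 in all libraries. Of 8 tested Kupffer cell markers 6 were lower and 2 higher with OA, with sums of 26.4 to 30.4 CPM in Con and 24.7 to 32.4 in ConOA. Higher with OA were also 1 of 3 cholangiocyte and 1 of 5 endothelial markers. Of 4 stellate markers 1 was higher and 1 lower. The cholangiocyte sum was 37.4 to 43.6 CPM in Con and 49.8 to 68.9 in ConOA, without overlap. Of the 9 hepatocyte markers 5 were higher and 1 lower. Their part in the results was not tested.

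With BBR present, OA was compared in BBROA against BBR. Of the 10 members 9 were called, beside 38.9% of 12416 genes (20.1% higher and 18.8% lower): Fasn and Elovl6 rose, and Scd1, Scd2, Me1, Srebf1, Acacb, Acaca and Acly fell. The median log2 fold change was -0.26, against -0.0061 over all genes, and 7 members did not overlap, against 49.6% of all genes. Scd1 was 2.31-fold lower (log2 fold change -1.21, SE 0.055, adjusted p = 1.41e-09), with 1836, 1848 and 1920 CPM in BBROA against 3945 to 4546 in BBR. Scd2 was at 12, 14.2 and 13.9 CPM in BBROA, 1.95-fold below BBR (log2 fold change -0.96, SE 0.088, adjusted p = 1.10e-06). In Con it was at 11 to 12.7 CPM. Srebf1, at 102.6 to 106.8 CPM in BBROA, was 1.21-fold lower than in BBR (log2 fold change -0.27, SE 0.042, adjusted p = 1.34e-04).

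Me1 was 1.22-fold lower in BBROA than in BBR (log2 fold change -0.28, SE 0.045, adjusted p = 2.07e-04). Fasn was at 228.3, 232.0 and 232.5 CPM and rose 1.12-fold (0.17, SE 0.044, adjusted p = 0.00788). Elovl6, at 51.6 to 57.1 CPM against 40.3 to 44.9 in BBR, rose 1.25-fold (0.33, SE 0.059, adjusted p = 4.99e-04). The remaining calls were close to the threshold. Acaca at 71.1 to 73.7 CPM against 73.3 to 98.3 overlapped slightly (log2 fold change -0.25, SE 0.078, adjusted p = 0.0209), a call lost without BBR replicate 3, BBROA replicate 1 or BBROA replicate 2 (-0.25 to -0.14, adjusted p from 0.053 to 0.114) and in a fit over all 12 libraries (adjusted p = 0.119). Acacb at 46 to 63.1 CPM against 61.5 to 80.4 overlapped (-0.32, SE 0.11, adjusted p = 0.0284) and was lost without BBR replicate 2, BBR replicate 3 or BBROA replicate 1 (-0.32 to -0.18, adjusted p from 0.055 to 0.154) and by DESeq2 (adjusted p = 0.188). Acly at 340.4 to 349.0 CPM against 369.8 to 374.4 (-0.11, SE 0.038, adjusted p = 0.0284) was lost without any 1 library other than BBR replicate 1 (-0.12 to -0.10, adjusted p from 0.053 to 0.0831), in the fit over all 12 libraries (adjusted p = 0.069) and without the filter on low counts (adjusted p = 0.0501). Thrsp covered 22 to 26.2 CPM in BBROA and 21.9 to 26.7 in BBR (0.042, 95% interval -0.13 to 0.22, adjusted p = 0.746), and was called in none of the 4 comparisons. Fabp4 of the adipocyte list was again higher with OA, at 22.8 to 29.6 CPM in BBR and 57.1 to 57.7 in BBROA, and 5 of 9 hepatocyte markers were higher and 2 lower. Of the endothelial markers 2 of 5 were higher and 3 lower, and of the Kupffer cell markers 2 of 8 were higher and 2 lower. Of 3 cholangiocyte markers 1 was lower. Their part in the results was not tested.

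Ratios between members within a library do not depend on the scaling of that library. Fasn over Acaca, the synthase over the carboxylase that feeds it, was 0.796, 0.962 and 0.584 in Con, 2.85, 3.45 and 2.19 in ConOA, 2.28, 2.8 and 2.2 in BBR and 3.21, 3.19 and 3.16 in BBROA. The 9 libraries with OA or BBR were all above the 3 Con libraries. Acacb over Acaca was 0.263 to 0.376 in Con, 0.413 to 0.571 in ConOA, 0.717 to 0.948 in BBR and 0.648 to 0.856 in BBROA, so the balance of the carboxylases was also lowest in Con. With BBR it was above all libraries without BBR, with or without OA. Scd1 over Fasn, the desaturase over the synthase, was 17 to 21.1 in Con and 19.2 to 22.7 in BBR, which overlap, and 5.71 to 6.71 in ConOA and 7.96 to 8.26 in BBROA, both lower. Scd2 as a percentage of Scd1 was 0.341 to 0.437 in Con, 0.573 to 0.625 in BBR, 0.653 to 0.766 in BBROA and 0.673 to 0.885 in ConOA. In ConOA Scd1 was lower while Scd2 was not called. With 3 libraries a group, an exact permutation test of such a ratio cannot go below p = 0.1, and none was run.

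**Figure D4:**
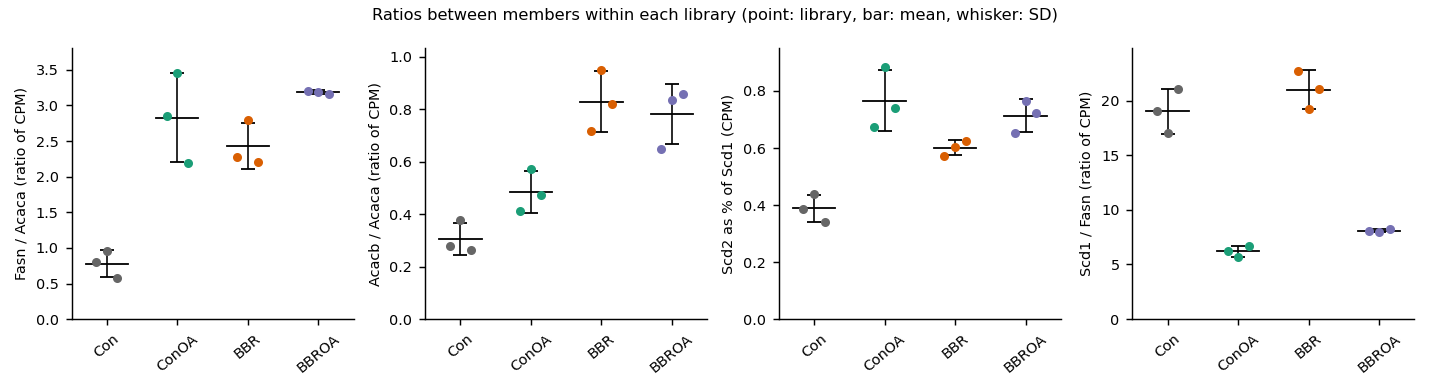
Ratios of TMM-scaled CPM between members within each library (vertical axes, from 0) by group, with points for libraries, bars for means and whiskers for the SD. Fasn over Acaca averages 0.781 in Con and 2.43 to 3.19 in the other groups, and Scd1 over Fasn averages 19 and 21 without OA and 6.22 and 8.09 with OA.

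Another 49 genes of the pathway, in 4 lists by role, were read in the same fits. With BBR against Con 9 of 46 tested were higher and 15 lower, beside 13.2% and 14.5% of all genes, with a median log2 fold change of -0.052 against -0.00085 over all genes. The carbon and NADPH supply genes had 1 higher and 5 lower of 10, elongation and desaturation 3 higher and 4 lower of 12, carboxylase regulators and lipogenic cofactors 3 higher and 2 lower of 9, and transcriptional control 2 higher and 4 lower of 15. Insig1, which retains SREBP precursors in the endoplasmic reticulum and is itself an SREBP target, rose from 101.1, 114.5 and 111.5 to 195.3, 236.2 and 209.1 CPM (log2 fold change 0.97, SE 0.064, adjusted p = 3.08e-08). Pklr (liver pyruvate kinase), a glycolytic enzyme ahead of the route, fell from 766.4 to 861.8 CPM in Con to 479.5 to 595.2 in BBR (-0.63, SE 0.071, adjusted p = 5.89e-06). Mlxipl, which encodes ChREBP, a glucose-responsive factor known to act on Pklr, fell from 79.2 to 84.7 to 53.3 to 61.8 CPM (-0.51, SE 0.057, adjusted p = 5.86e-06). Mid1ip1, a partner of Thrsp that promotes assembly of the carboxylase, fell as well (-0.56, SE 0.056, adjusted p = 2.02e-06), as did the elongase Elovl2 (-0.81, SE 0.099, adjusted p = 1.41e-05).

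Mlycd, which breaks malonyl-CoA down, rose with BBR by 0.32 (SE 0.083, adjusted p = 0.00843). Smaller rises were those of Insig2 (0.21, adjusted p = 0.00911), which was lost without BBR replicate 2 or Con replicate 1 (adjusted p = 0.0515 and 0.0519), and of the polyunsaturated fatty acid desaturase Fads2 (0.21, adjusted p = 0.0224), which was lost without BBR replicate 2, BBR replicate 3, Con replicate 1 or Con replicate 3 (0.16 to 0.22, adjusted p from 0.0534 to 0.124). Nr1h3, which encodes LXR alpha, was not called (-0.11, adjusted p = 0.184).

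In lipid-loaded cells 2 of 45 pathway genes were higher and 2 lower with BBR, beside 1.95% and 2.63% of all genes (median -0.02, against -0.00031 over all genes). Insig1 was not called, at a log2 fold change of -0.19 (adjusted p = 0.112), but was called lower without the filter on low counts (-0.19, adjusted p = 0.0427) and without ConOA replicate 3 (-0.24, adjusted p = 0.0346). Mlycd was at 17 to 18.3 CPM in ConOA and 23.6 to 26.6 in BBROA (0.54, SE 0.076, adjusted p = 8.50e-04). Mid1ip1 was again lower, at 96.9 to 107.7 CPM in ConOA and 76.3 to 81.1 in BBROA (-0.38, SE 0.053, adjusted p = 8.12e-04). Elovl2 was higher (0.40, SE 0.077, adjusted p = 0.00822), a call lost without BBROA replicate 3 or ConOA replicate 2 (adjusted p = 0.0571 and 0.0563). Pklr was lower (-0.26, SE 0.066, adjusted p = 0.0413), a call lost without BBROA replicates 1, 2 or 3 or ConOA replicates 2 or 3 (-0.30 to -0.19, adjusted p from 0.0711 to 0.133) and in the fit over all 12 libraries (adjusted p = 0.0654). The count of 4 pathway genes was 2 without BBROA replicate 3 or without ConOA replicate 2.

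With OA against Con, 11 of 45 pathway genes were higher and 17 lower, beside 21.3% and 21.5% of all genes (median -0.056, against -0.006). By list the counts were 2 higher and 6 lower of 10 for carbon and NADPH supply, 2 and 6 of 11 for elongation and desaturation, 2 and 0 of 9 for carboxylase regulators and cofactors, and 5 and 5 of 15 for transcriptional control. Elovl2 had the largest fall, from 46.5 to 54.2 CPM in Con to 21.6 to 25.2 in ConOA (log2 fold change -1.11, SE 0.078, adjusted p = 7.78e-08). Acss2, which makes acetyl-CoA from acetate, fell by 0.58 (SE 0.074, adjusted p = 2.27e-05), and Fads2 by 0.22 (adjusted p = 0.00923), lost without Con replicate 2 (adjusted p = 0.0606). Trib3, a stress-induced pseudokinase that promotes degradation of the carboxylase, rose by 0.77 (SE 0.051, adjusted p = 4.45e-08), Fads3 by 0.52 (SE 0.05, adjusted p = 1.53e-06) and Insig1 by 0.45 (SE 0.07, adjusted p = 1.38e-04). Mlxipl fell by 0.22 (SE 0.052, adjusted p = 0.00363). Nr1h3 (0.08, adjusted p = 0.272) and Mid1ip1 (0.13, adjusted p = 0.0922) were not called.

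With BBROA against BBR, 16 of 45 were higher and 9 lower, beside 20.1% and 18.8% of all genes (median -0.023, against -0.0061), but 12 were higher and 15 lower under upper quartile scaling, so the balance of directions depends on the scaling. By list the counts were 3 and 3 of 10, 3 and 4 of 11, 4 and 0 of 9, and 6 and 2 of 15 in the order given above. The largest changes kept their direction under every scaling. Fads3 rose from 98.6 to 111.7 CPM in BBR to 171.8 to 190.2 in BBROA (0.81, SE 0.054, adjusted p = 5.14e-08), and H6pd, an NADPH source of the endoplasmic reticulum, rose by 0.80 (SE 0.055, adjusted p = 6.40e-08). Insig1 fell from 195.3 to 236.2 CPM in BBR to 126.2 to 134.2 in BBROA (-0.72, SE 0.06, adjusted p = 4.23e-07). Fads2 and Fads1 fell together (-0.53 and -0.50, adjusted p = 3.52e-05 and 1.30e-05). Trib3 rose by 0.54 (adjusted p = 8.91e-07), Nr1h3 by 0.36 (adjusted p = 3.25e-04) and Mid1ip1 by 0.30 (adjusted p = 3.06e-04), while Mlxipl was not called (0.15, adjusted p = 0.0779). Mlxipl was called higher without BBR replicate 3 (0.22, adjusted p = 0.0254), without BBROA replicate 2 (0.20, adjusted p = 0.0483) and without the filter on low counts (0.16, adjusted p = 0.0457).

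**Figure D5:**
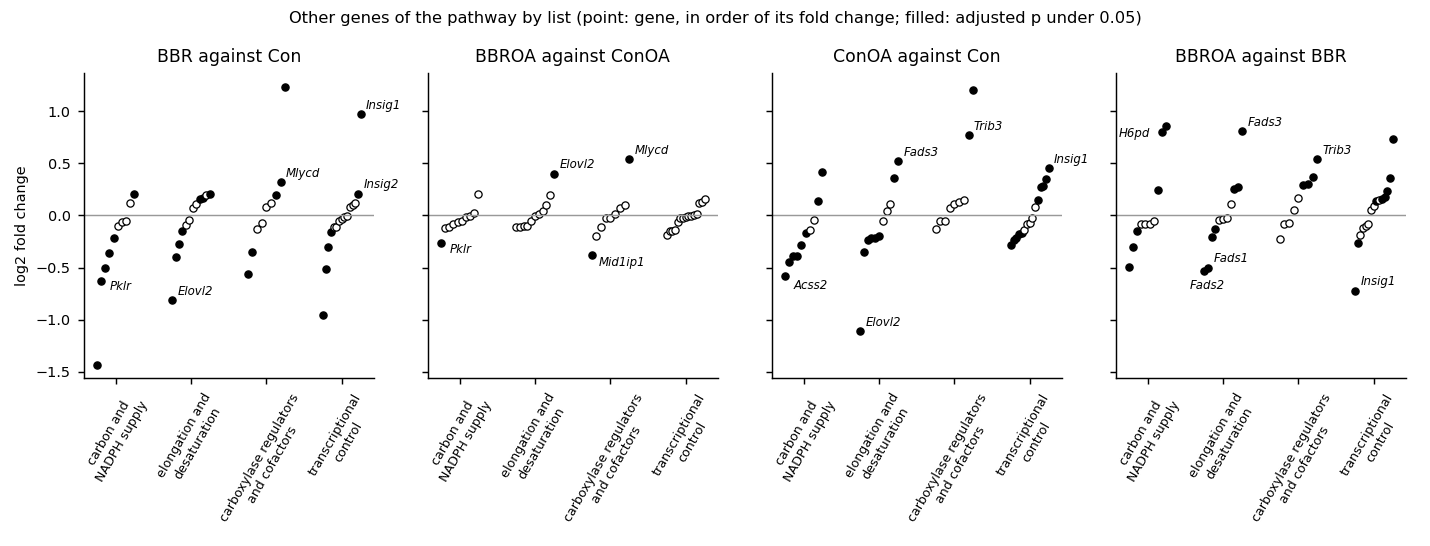
Log2 fold changes (vertical axis) of the other pathway genes in the 4 comparisons, 1 point a gene, set out by list and ordered within it by size, filled at an adjusted p under 0.05, with the rule-chosen genes labelled. BBROA against ConOA has 4 filled points of 45, against 24 of 46 for BBR against Con, and the unlabelled points at 1.23 and 1.20 are Pnpla3, which stayed under 5 CPM and so was not chosen by the rule.

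Across the 12 libraries the members did not follow 1 pattern. Over log2 CPM, Srebf1 went with Scd2 (Pearson r = 0.97) and against Elovl6 (r = -0.95), while Fasn went against Me1 (r = -0.91) and Acaca (r = -0.88) and was unrelated in this measure to Srebf1 (r = 0.03). These values describe 12 libraries of 4 groups that share their group differences, and no p is given. The comparison covered 9714 genes with a mean of at least 5 CPM, the members among them, and the members were left out of the ranking. Genes most like Fasn over the 12 libraries included Arid3b (r = 0.980), Slco2a1 (0.969), Mthfd1l (0.968) and Sqle (0.967). Those most like Srebf1 were Zfp319 (0.977), Ddx17 (0.965), Arid5a (0.960), Synpo (0.955) and Cd44 (0.954).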

How the data were processed

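Poly(A)-selected RNA of 12 libraries was analysed, grouped as Con, ConOA, BBR and BBROA from the sample titles. For each library the authors deposited a table of estimated counts and FPKM (fragments scaled by transcript length and library total) over 22471 features, with 2862 features fractional in at least 1 library. The submitters' processing notes name build mm10, and the aligner, the counting program and the use of strand are not given in the sources used here. The deposited expected counts were rounded to whole numbers. The deposited FPKM values served to compare levels between genes and were not tested. Both units share the authors' transcript models, so reads of overlapping genes or near copies may be split between them.

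Each comparison was fitted on its 6 libraries in edgeR 4.0.16 (R 4.3.3) with filterByExpr (minimum count 10), TMM scaling and the two-sided quasi-likelihood test with Benjamini-Hochberg adjustment over all genes tested. A gene was called at an adjusted p under 0.05. The interaction was fitted on all 12 libraries. SEs were derived from the F statistic, and CPM values were scaled by TMM over the 12 libraries. The fits were tested on simulated data with known changes. The alternatives were RLE and upper quartile scaling, no low-count filter, DESeq2 1.42.0, a 12-library fit, the replicate number as a block, and leaving out each library.

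The members and the gene lists were chosen with earlier results of these data known. All members are named. Of the 49 other pathway genes, the 3 largest rises and falls per comparison among called genes of at least 5 CPM are named, with Mlxipl, Nr1h3, Insig1, Mid1ip1 and Fads2 whatever their values, and of all genes the 5 most correlated with Fasn and with Srebf1. 2 genes that this rule chose are not reported here. Markers are named beside it, and Pnpla3 after its values were seen. Positions are from GENCODE M21 and promoter windows from RefSeq GRCm38.p6. The floor of 3 counts was a fixed value not estimated from the data, and reads are not independent molecules.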

Additional observations from a re-analysis of the deposited data

Results flagged for a closer look

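The effect of BBR differed between cells with and without OA, by the interaction term in edgeR at an adjusted p under 0.05, for 4 members and 7 of the named pathway genes. Among members the interaction was 1.06 for Acaca (adjusted p = 3.52e-04), -0.90 for Scd2 (3.45e-04), -0.40 for Fasn (0.00531) and -0.23 for Srebf1 (0.025, lost when BBR replicate 1, Con replicate 1, Con replicate 3 or ConOA replicate 2 was left out) on the log2 scale. Among regulators it was -1.16 for Insig1, which had log2 fold changes of 0.97 without OA and -0.19 with OA (adjusted p = 4.63e-06), 0.38 for Mlxipl (-0.51 and -0.14, adjusted p = 0.00665) and 0.28 for Nr1h3 (-0.11 and 0.16, adjusted p = 0.0293). The call of Nr1h3 was lost by DESeq2 (adjusted p = 0.0559) and without BBROA replicates 1 or 3, ConOA replicates 1 or 2, BBR replicate 2 or Con replicates 1 or 2 (0.23 to 0.28, adjusted p from 0.0521 to 0.117). Pklr had 0.39 (-0.63 and -0.26, adjusted p = 0.0291), a call lost without BBROA replicates 2 or 3, ConOA replicates 1 or 2, BBR replicates 1 or 2 or Con replicates 2 or 3 (0.32 to 0.39, adjusted p from 0.0523 to 0.108). H6pd had 0.40 (-0.50 and -0.11, adjusted p = 0.00271). For Elovl2 the interaction was 1.23, with a fall without OA and a rise with OA (-0.81 and 0.40, adjusted p = 3.89e-05), and for Fads3 it was 0.30 (-0.40 and -0.11, adjusted p = 0.0128), lost without BBROA replicate 3 (0.25, adjusted p = 0.0623). Most named pathway genes were chosen for large changes in these same libraries, so their count of calls does not measure the pathway. Of all 46 pathway genes tested, the interaction passed for 16 (34.8%), and over all genes tested for 12.2%.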

How the results depend on the processing

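Of 650 alternative values of the members, 595 kept their direction and side of the threshold, 32 lost a call, 14 gained one and 9 turned sign, and of 910 values of the named pathway genes 821 did, with 47, 40 and 2 in the other classes. Turned signs occurred only in uncalled genes. Leaving out 1 library at a time, the log2 fold change covered -0.077 to 0.10 for Thrsp with BBROA against ConOA, -0.15 to 0.0022 for Scd2, -0.064 to 0.0042 for Srebf1 and -0.089 to 0.011 for Mlycd with ConOA against Con, and -0.022 to 0.14 for Thrsp and -0.031 to 0.19 for Elovl2 with BBROA against BBR, where Thrsp was also at -0.00012 under upper quartile scaling. Leaving out 1 library moved the members called with BBROA against ConOA between 1 and 3 and the pathway genes called between 2 and 5. Over all genes the 563 calls of that comparison became 373, 230 and 216 without BBROA replicates 1, 2 and 3 and 249 without ConOA replicate 2, and the 1551 interaction calls became 1027 without ConOA replicate 2 and 1028 without BBR replicate 2. Upper quartile scaling moved the split over all genes from 2643 higher and 2668 lower to 2077 and 3216 with ConOA against Con, and from 2496 and 2330 to 1976 and 2870 with BBROA against BBR. The causes were not tested.

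What same-numbered libraries share is not stated in the labels or methods, and the main fits did not use the number. Their deviations from the group means correlated weakly, with r from 0.0234 to 0.155, and 2 of 12 pairs exceeded 0.1. However, in 11 of 12 matches a library of the first-named group correlated best with its own number in the second group. These were not 12 separate libraries: those of BBROA entered against both ConOA and BBR, and those of Con only as second group. The exception was BBROA replicate 2 against ConOA, with r = 0.0392 to ConOA replicate 2 and 0.0572 to ConOA replicate 3. The matches are a hint from the data only that the numbers may mark related libraries. With the replicate block 5 members (2 higher, 3 lower) and 9 pathway genes were called with BBROA against ConOA, and 1333 of all genes. The block also called genes that the fit without it did not: Thrsp was lower with BBR against Con (-0.20, adjusted p = 0.0256) and with ConOA against Con (-0.17, adjusted p = 0.026), Acaca (-0.27, adjusted p = 0.00531), Me1 (-0.14, adjusted p = 0.0283) and Insig1 (-0.19, adjusted p = 0.00943) were lower and Nr1h3 higher (0.16, adjusted p = 0.0403) with BBROA against ConOA, Mid1ip1 was higher with ConOA against Con (0.13, adjusted p = 0.007), and Mlxipl was higher with BBROA against BBR (0.16, adjusted p = 0.0114). Its interaction calls included Acacb (0.31, adjusted p = 0.00479) and Elovl6 (0.24, adjusted p = 0.0276). The depth limits Scd2 and other genes of few CPM most.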

Other observations

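The deposited counts and FPKM of a gene give its count per FPKM, which was scaled here to the median over genes in each library and depends on the transcript length used in the quantification. For Scd1, Scd2, Me1 and Thrsp it varied by 0.213% to 0.223% over the 12 libraries (coefficient of variation). For Acaca it varied by 6.17%, more than for 88.6% of 9731 genes, with group means of 1.04 in Con, 0.932 in ConOA, 0.989 in BBR and 1.04 in BBROA relative to the gene's own average. Elovl6 varied by 6.03%, with 1.03 in Con, 1 in ConOA, 1.04 in BBR and 0.931 in BBROA. Acaca in FPKM was 40.1 ± 7.18 in Con, 17.8 ± 2.03 in ConOA, 16.6 ± 1.26 in BBR and 13.3 ± 0.517 in BBROA (SD, n = 3), so its fall from Con to each other group was seen in both units.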
